A study of Mus musculus with 19 samples.

Results

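The genes described here are 10 genes of the smooth muscle contractile programme and of its transcription factor, SRF: Acta2, Tagln, Cnn1, Myl9, Tpm1, Tpm2, Cald1, Vim, Vcl and Srf. They were chosen by name, with earlier results of these data known, and all 10 were found among the 21685 gene symbols of the table. All 10 were among the 14988 genes that reached a normalised value of at least 10 units in at least 4 libraries and were tested. Acta2 passed through the libraries in which it was high: it reached 10 units in all 8 libraries with intact Lin28a, but in only 1 of 5 WT-KO and 1 of 5 KO-KO libraries. The other 9 genes reached it in every library.

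mRNA was sequenced from male C57BL/6 mouse embryonic stem cells kept in serum with leukaemia inhibitory factor and sorted on magnetic beads for the surface antigen SSEA-1. The study crossed loss of Trim71, an RNA-binding ubiquitin ligase, with loss of Lin28a, which binds RNA and keeps let-7 microRNAs from maturing. In genotype names the state of Trim71 precedes that of Lin28a. WT-WT cells were Trimfl/fl and Lin28afl/fl (4 libraries), KO-WT cells were Trim71-null and Lin28afl/fl (4 libraries used), WT-KO cells were Trimfl/fl and Lin28a-null (5 libraries), and KO-KO cells lacked both (5 libraries). Trim71 loss was induced in culture with 500 nM 4-hydroxytamoxifen for 2 days, followed by at least 7 days of growth. Whether the Trim71-intact cells also had the drug is not stated in the labels. Lin28a-intact libraries came from clones 1 and E3 and Lin28a-null libraries from clones 1-4 and C1, and the effects of Lin28a state and of clone cannot be told apart. Libraries of a genotype came from these clones on different days, and p-values measure the spread between such cultures, not between independently derived lines.

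SRF is a transcription factor that binds a short DNA element called the CArG box. With its MRTF or myocardin partners, which respond to actin assembly, it drives genes of the contractile and adhesion machinery, and with ternary complex factor partners such as the ELK proteins it drives immediate early genes. In smooth muscle this programme supplies actin, the proteins that decorate and stabilise actin filaments, and myosin regulators. Several of its members are also made by fibroblasts and by early differentiating cells.

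To show where the motif lies in these genes, promoters of 300 bases (250 before to 50 after the start site, RefSeq, GRCm38.p6) were searched on both strands for the CArG box, here CC, then 6 bases each A or T, then GG. RefSeq promoters were matched for 9 of the 10 genes, 10 windows in all, and not for Tagln. An exact box was present for 3 genes, Myl9, Vcl and Srf. A box with at most 1 base off was present for 6 genes, which added Acta2, Tpm1 and Cald1. Of 32851 promoters of the same length, 535 (1.63%) held an exact box and 6936 (21.1%) one with at most 1 base off. The 3 genes whose exact boxes are shown first are the members that did not pass the test in the comparison of WT-KO with WT-WT; the next 3 are genes that fell there. Each line gives 30 bases 5′ to 3′ on the strand of the gene, with the box in capitals.
Srf, exact, 82 bases before the start, chr17:46556225-46556254, minus strand: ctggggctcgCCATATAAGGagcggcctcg
Srf, exact, 62 bases before the start, chr17:46556205-46556234, minus strand: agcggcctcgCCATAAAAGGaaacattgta
Vcl, exact, 227 bases before the start, chr14:20929161-20929190, plus strand: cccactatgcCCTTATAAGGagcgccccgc
Myl9, exact, 161 bases before the start, chr2:156775293-156775322, plus strand: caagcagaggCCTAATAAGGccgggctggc
Acta2, 1 base off, 84 bases before the start, chr19:34255438-34255467, minus strand: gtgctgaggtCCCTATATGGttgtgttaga
Tpm1, 1 base off, 221 bases before the start, chr9:67049415-67049444, minus strand: gctcgggtccCCATATATAGtcatatccac
Cald1, 1 base off, 203 bases before the start, chr6:34598291-34598320, plus strand: acggtttcaaGCTTTTTAGGacttggtttt

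A match is a description of the letters and not a bound site. Distances count from the base of the box nearest the 5′ end of the window to the start site. The remaining inexact matches lay 34 bases before the Acta2 start, 80 before the Tpm1 start, 99 before the Myl9 start and 39 before the Srf start. No box with at most 1 base off lay in the windows of Cnn1, Tpm2 and Vim.

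**Figure D1:**
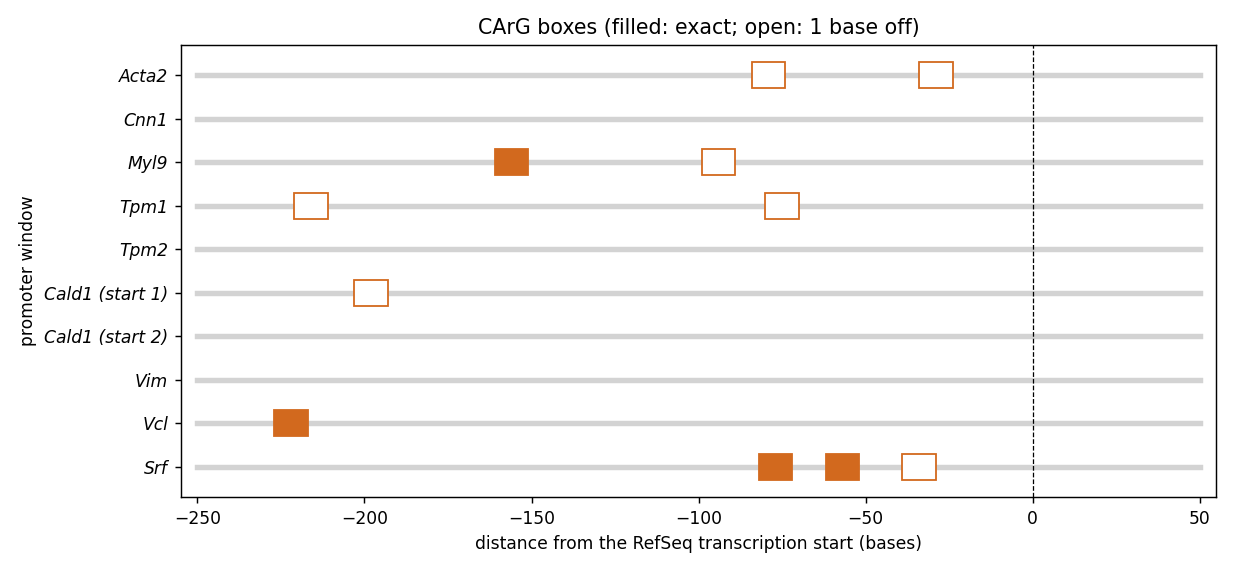
CArG boxes in the promoter windows of 9 genes, drawn to scale by distance from the start site in bases (x axis), 1 row per window; filled boxes match exactly and open boxes have 1 base off. Exact boxes are drawn for Myl9, Vcl and Srf, and the row of Srf holds 2 of them.

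The libraries were checked against their labels. The values are deposited log2 normalised expression, so a difference of 1 is a change of 2-fold, and the depth of the libraries is unknown. Trim71 lay between 8.77 and 9.55 in the Trim71-null libraries and between 10.04 and 11.00 in the others; Lin28a lay between 8.21 and 8.57 in the Lin28a-null libraries and between 9.74 and 10.26 in the others. The stem cell genes Pou5f1, Nanog and Sox2 had genotype means between 11.49 and 13.20. Of 8 markers of mature smooth muscle, 7 were in the table and 4 passed the filter. Those that did not were Myh11 (smooth muscle myosin heavy chain), with genotype means of 2.26 to 2.44, Actg2 (enteric smooth muscle actin), with 0.73 to 1.32, and Myocd (myocardin), with 0.41 to 0.56. Those that did were Smtn (8.84 to 9.00), Des (7.30 to 7.97), Lmod1 (4.25 to 4.89) and Synpo2 (3.87 to 4.09). The 10 genes are described as genes of the programme measured in embryonic stem cells. In bulk RNA, fewer cells of a type and less RNA per cell cannot be told apart.

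Divided by the length of the longest coding transcript, Tpm1 was the most abundant of the 10 in WT-WT cells, at a mean log2 level per kilobase of 9.31. Vim (8.34) and Cald1 (8.12) followed, then Srf (7.43), Tpm2 (7.37), Tagln (7.33) and Vcl (7.30). The order of Vim and Cald1 depends on the transcript chosen, since the coding transcript used for Vim has 2193 bases and its longest transcript of any kind 2926. Myl9 (5.45), Acta2 (5.43) and Cnn1 (3.68) were the least abundant. Tpm2, Tagln, Vcl and Srf lay close together in the middle of this order.

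The comparison of Lin28a-null with Lin28a-intact cells asks what loss of Lin28a does to these genes, first with Trim71 intact. Acta2, Tagln, Cald1, Tpm1, Tpm2, Vim and Cnn1 fell in WT-KO relative to WT-WT cells, by 0.63 to 3.29 on the log2 scale. Myl9, Vcl and Srf did not pass the test. Of all tested genes 22% were called lower and 20.3% higher (limma, Benjamini-Hochberg adjusted p under 0.05), against 7 of the 10 lower and none higher (6 of 9 without Acta2). With GC and length trends removed, 2856 of 14805 genes were lower and 3910 higher, and the same 7 were called lower. The compared libraries did not overlap for these 7 genes, as for 20.7% of all tested genes in that direction. The median difference of the 10 genes was -0.85 (-0.64 without Acta2) and that of all tested genes was -0.01. At least 2-fold lower and called were 5 of the 10, Acta2, Tagln, Cald1, Tpm1 and Tpm2 (4 of 9 without Acta2), against 1.25% of all tested genes.

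Acta2 encodes smooth muscle alpha-actin, the thin filament actin of smooth muscle. Its values were 6.30, 6.35, 6.30 and 6.87 in the WT-WT libraries and 3.05, 3.23, 3.34, 3.17 and 3.03 in the WT-KO libraries. With Trim71 absent they were 5.98, 5.83, 6.11 and 5.63 in KO-WT and 3.60, 3.17, 3.32, 3.25 and 3.31 in KO-KO libraries. The highest Lin28a-null value, 3.60, lay far below the lowest Lin28a-intact value, 5.63. Expression of Acta2 was 9.77-fold lower in WT-KO than in WT-WT cells (log2 difference -3.29 ± 0.136 SE, limma adjusted p = 6.3e-11), the ninth lowest difference of the 14988. In Trim71-null cells it was 5.89-fold lower (log2 difference -2.56, limma adjusted p = 1.01e-09). Acta2 passed the filter through the Lin28a-intact libraries, and only 1 of 5 WT-KO and 1 of 5 KO-KO libraries reached 10 units. Its folds, rank and p-values are therefore a description of the values only.

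Tagln encodes transgelin (SM22-alpha), an actin-binding protein of the smooth muscle thin filament. It read 7.88, 7.99, 7.90 and 8.25 in WT-WT libraries and 4.54, 5.03, 4.99, 4.85 and 4.89 in WT-KO libraries. In Trim71-null cells it read 7.66, 7.58, 8.03 and 7.60 with Lin28a and 5.48, 4.92, 5.06, 4.83 and 4.88 without it. The Lin28a-null values again formed a separate low range, and the highest of them, 5.48, was KO-KO replicate 1. Tagln was 8.82-fold lower in WT-KO than in WT-WT cells (-3.14 ± 0.146 SE, limma adjusted p = 1.69e-10) and, between KO-KO and KO-WT cells, 6.41-fold lower (-2.68, limma adjusted p = 1.34e-09). Of 1546 stretches of 50 bases in its transcript, 747 (48.3%) also occur in transcripts of the neighbouring genes Pcsk7 or Gm48529, so reads there may have been split between genes. Gm48529, which shares 688 of these stretches, was not among the gene symbols of the table and could not be read. Pcsk7 was not called between WT-KO and WT-WT cells (-0.16, limma adjusted p = 0.0998).

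Cnn1 encodes calponin, which binds actin and restrains the myosin motor. It read 4.94, 5.05, 4.79 and 4.93 in WT-WT, and 4.18, 4.34, 4.36, 4.26 and 4.33 in WT-KO libraries. Its KO-WT values, 4.53, 4.32, 4.73 and 4.52, reached into the range of the WT-KO values, and its KO-KO values were 4.27, 4.12, 4.17, 4.12 and 4.13. Cnn1 fell by 0.63 ± 0.0879 (SE) with Trim71 intact (limma adjusted p = 3.18e-05) and by 0.36 with Trim71 absent (limma adjusted p = 0.00363). Cnn1 thus fell in both states, by far less than Acta2 and Tagln.

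Tropomyosins lie along the actin filament and control access of myosin to it. Tpm1 read 10.79, 10.94, 10.78 and 10.85 in WT-WT libraries and 9.55, 9.69, 9.72, 9.78 and 9.52 in WT-KO libraries. It read 10.65, 10.58, 10.60 and 10.66 in KO-WT libraries and 9.62, 9.41, 9.35, 9.43 and 9.57 in KO-KO libraries. Tpm1 fell by 1.19 ± 0.0667 (SE) with Trim71 intact and by 1.15 with Trim71 absent, and no Lin28a-null library reached the lowest Lin28a-intact one. Tpm2, the beta-tropomyosin gene, ran from 8.41 to 8.57 in WT-WT and from 8.42 to 8.51 in KO-WT libraries, against 7.32 to 7.52 in WT-KO and 7.28 to 7.51 in KO-KO libraries. It fell by 1.05 ± 0.0636 (SE) and by 1.10 in the respective comparisons.

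Caldesmon, encoded by Cald1, binds actin, tropomyosin and myosin and restrains contraction. It read 10.21, 10.24, 10.64 and 10.40 in WT-WT libraries, and 8.97, 8.90, 9.08, 9.05 and 8.81 in WT-KO libraries. KO-WT libraries read 10.10, 10.08, 10.10 and 10.28 and KO-KO libraries 9.18, 9.13, 9.09, 8.71 and 9.02. Cald1 fell by 1.41 ± 0.102 (SE) in WT-KO (limma adjusted p = 2.73e-08) and by 1.12 in KO-KO cells. All Lin28a-null libraries lay below all Lin28a-intact ones for both tropomyosin genes and Cald1, and the amount lost was not called different between the Trim71 states for any of them.

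Vim encodes vimentin, the intermediate filament protein of mesenchymal cells. It ran from 9.33 to 9.56 in WT-WT and from 9.36 to 9.49 in KO-WT libraries, and from 8.67 to 9.01 in WT-KO and from 8.70 to 8.93 in KO-KO libraries. Vim fell by 0.64 ± 0.0725 (SE) with Trim71 intact (limma adjusted p = 3.96e-06) and by 0.58 with Trim71 absent. The Lin28a-intact and Lin28a-null ranges of Vim did not overlap.

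**Figure D2:**
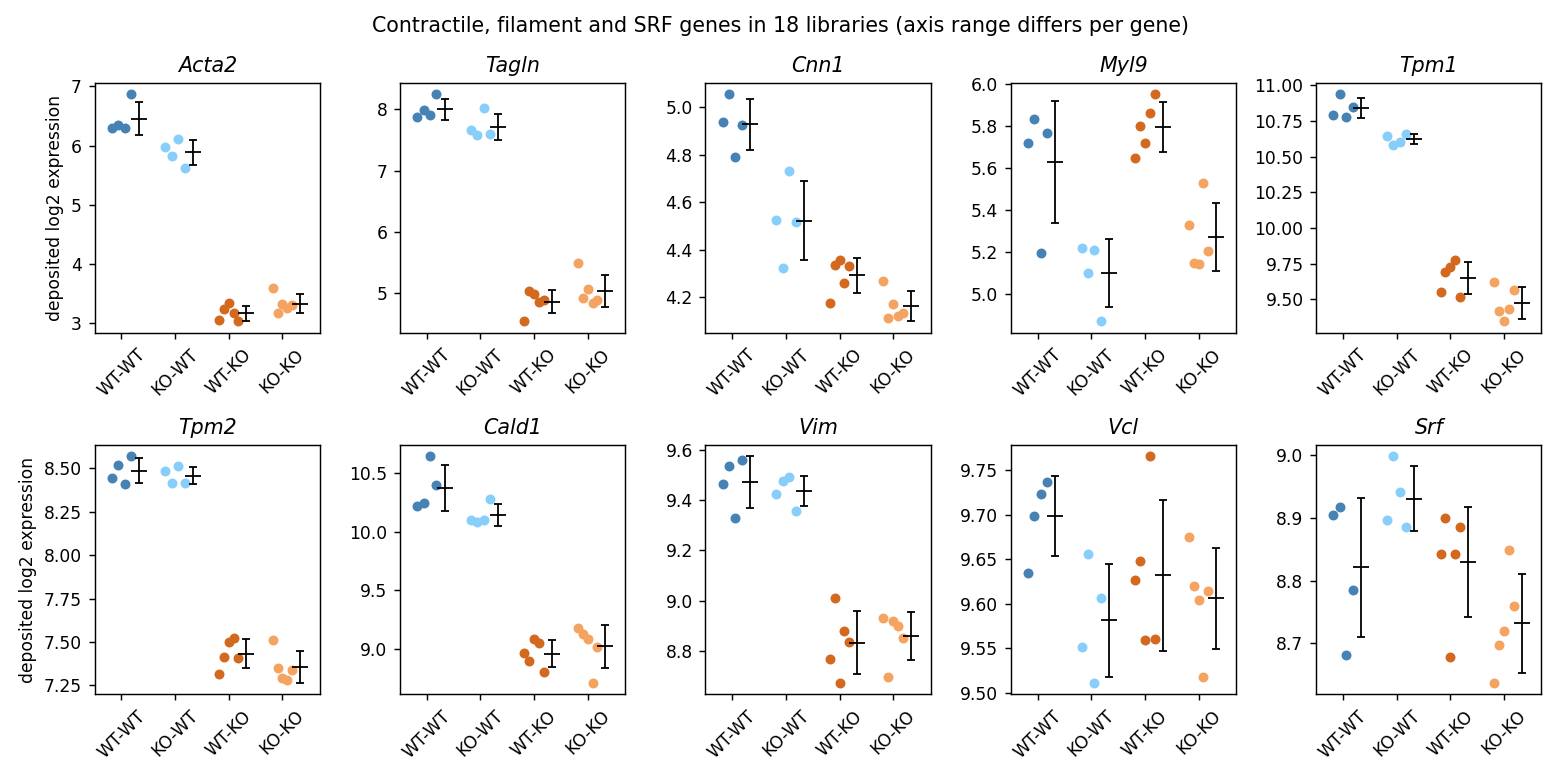
Deposited log2 expression of the 10 genes (1 panel each, y axis of its own range) in the 4 genotypes (x axis); each point is 1 of 18 libraries and the bar with whiskers is the mean ± SD. Acta2 and Tagln drop from means of 6.45 and 8.00 in WT-WT to 3.17 and 4.86 in WT-KO libraries, while Vcl and Srf stay between 8.64 and 9.77 in all libraries.

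Myl9, Vcl and Srf did not pass the test between WT-KO and WT-WT cells. Myl9 encodes a regulatory light chain of non-sarcomeric and smooth muscle myosin, whose phosphorylation switches contraction on. It read 5.72, 5.83, 5.19 and 5.77 in WT-WT libraries, and 5.64, 5.80, 5.72, 5.86 and 5.95 in WT-KO libraries. Its difference was 0.17 ± 0.132 (SE, 95% interval -0.11 to 0.45, limma adjusted p = 0.324), and the groups overlapped. This interval lies wholly above the differences of the 7 genes that fell.

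Vinculin, encoded by Vcl, ties actin filaments to integrin and cadherin adhesions. Vcl ran from 9.63 to 9.74 in WT-WT, 9.51 to 9.66 in KO-WT, 9.56 to 9.77 in WT-KO and 9.52 to 9.68 in KO-KO libraries, which all overlapped. The difference of WT-KO from WT-WT was -0.07 ± 0.0525 (SE, 95% interval -0.18 to 0.04). In Trim71-null cells it was 0.02 (95% interval -0.09 to 0.14). Of its 5218 stretches of 50 bases, 2045 (39.2%) also occur in transcripts of the overlapping gene Ap3m1, which fell by 0.18 in WT-KO relative to WT-WT cells (limma adjusted p = 0.0205), so the value of Vcl is uncertain to that extent.

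Srf itself read 8.90, 8.92, 8.68 and 8.78 in WT-WT libraries and 8.84, 8.90, 8.68, 8.84 and 8.88 in WT-KO libraries. It read 8.90, 9.00, 8.94 and 8.89 in KO-WT libraries and 8.64, 8.70, 8.72, 8.85 and 8.76 in KO-KO libraries. The transcript of the factor was thus at nearly the same level in WT-WT and WT-KO cells, where 7 of the other 9 genes fell. The difference was 0.01 ± 0.0641 (SE, 95% interval -0.13 to 0.14, limma adjusted p = 0.933).

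With Trim71 absent, the 7 genes fell again and Srf joined them: 8 of 10 were lower in KO-KO than in KO-WT cells and none higher, with a median of -0.84 (7 of 9 and -0.58 without Acta2), against 22% of all tested genes lower, 20.8% higher and a median of 0.00. None of the 8 overlapped, as for 20.8% of all tested genes in that direction. The same 5 genes, Acta2, Tagln, Cald1, Tpm1 and Tpm2, were at least 2-fold lower (4 of 9 without Acta2), against 1.27% of all tested genes. Srf fell by 0.20 ± 0.0641 (SE, limma adjusted p = 0.0201), and its KO-KO values, at most 8.85, lay below its lowest KO-WT value, 8.89. That call was lost, in limma fits, without KO-KO replicate 2 (adjusted p = 0.0582) or KO-WT replicate 2 (0.0823), on days 3, 4 and 5 alone (-0.17, 0.134), and within clones E3 and C1 (-0.19, 0.138) or 1 and 1-4 (-0.18, 0.201). Srf has a transcript of 64.4% GC, higher than 99.3% of tested genes with a value, and with GC and length trends removed its difference was -0.02 (limma adjusted p = 0.795). Myl9 (0.17, limma adjusted p = 0.312) and Vcl were not called.

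Since clone and Lin28a state were linked, the fall was also read within each set of clones. With Trim71 intact, all 7 calls were kept in either set, E3 with C1 or 1 with 1-4, with log2 differences of -3.06 and -3.54 for Acta2 and -2.98 and -3.35 for Tagln. In those fits 8.56% and 16.0% of all tested genes were lower. In Trim71-null cells 7 and 6 genes were called, against 12.6% and 8.19% of all tested genes lower, and Cnn1 was lost in clones 1 and 1-4 (-0.31, limma adjusted p = 0.225). There KO-WT had 1 library, which is assumed to vary like the libraries of the other genotypes. Both sets compare a Lin28a-null clone with a different Lin28a-intact clone.

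**Figure D3:**
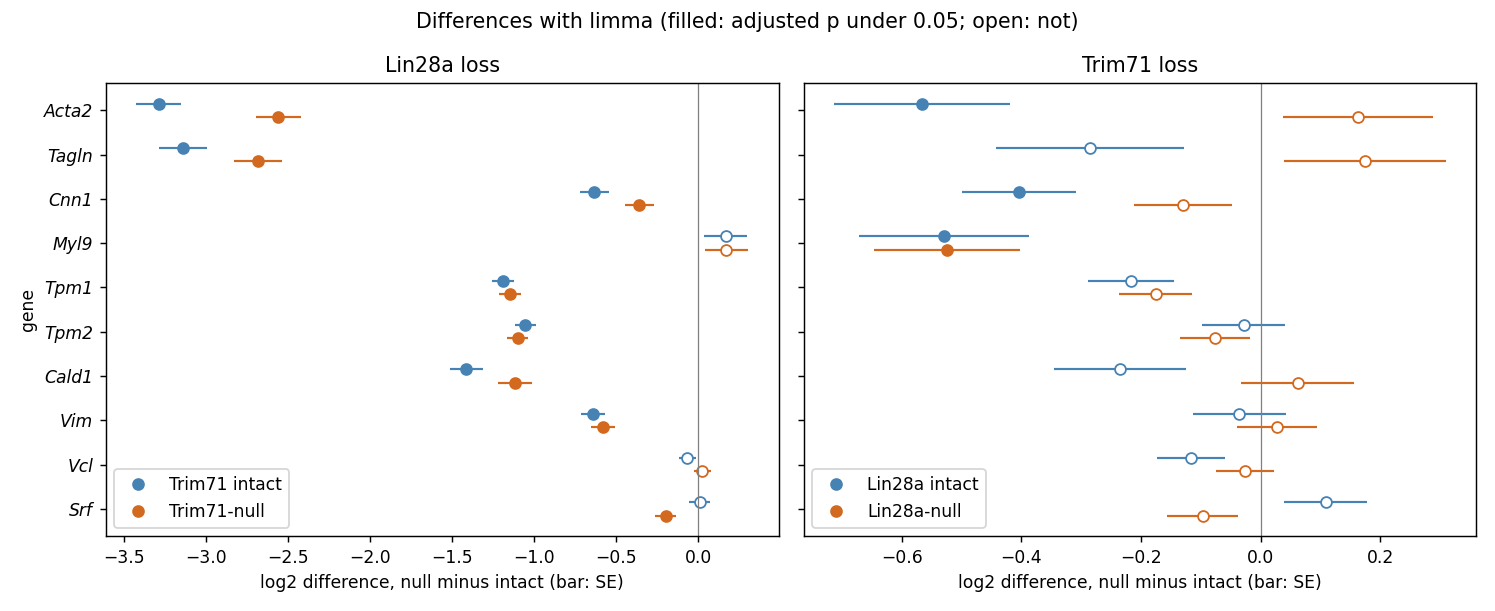
Log2 differences ± SE (x axis, of different range in each panel) of the 10 genes (y axis) from limma, for Lin28a loss (left) and Trim71 loss (right), each in both states of the other gene; filled points are called. The points of Acta2 and Tagln lie at -3.29 and -3.14 for Lin28a loss with Trim71 intact, whereas every difference for Trim71 loss lies between -0.57 and 0.17.

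The comparison of Trim71-null with Trim71-intact cells asks what loss of Trim71 does to the same genes. Differences were small. With Lin28a intact, Acta2, Myl9 and Cnn1 fell in KO-WT relative to WT-WT cells, 3 of 10 with none higher, against 6.43% of all tested genes lower and 4.74% higher (2 of 9 without Acta2); the median of the 10 was -0.23 (-0.22 without Acta2) and that of all tested genes 0.00. Acta2 fell by 0.57 ± 0.147 (SE, limma adjusted p = 0.0249) and its KO-WT values, at most 6.11, lay below its lowest WT-WT value, 6.30. Cnn1 fell by 0.40 ± 0.095 (SE, limma adjusted p = 0.0168), again without overlap. Myl9 fell by 0.53 ± 0.143 (SE, limma adjusted p = 0.0285), from values of 5.19 to 5.83 in WT-WT to 5.22, 5.10, 5.21 and 4.87 in KO-WT libraries, with overlap. The third gene without overlap was Tpm1 (-0.22, limma adjusted p = 0.0618), which was called without WT-KO replicate 4 (0.046) or KO-KO replicate 1 (0.0338). Genes without overlap in the lower direction made up 15.3% of all tested genes. Tagln (-0.29, limma adjusted p = 0.244), Tpm2, Cald1, Vim, Vcl and Srf were not called.

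The share of all genes called also rested on single libraries in this comparison: 1674 genes were called, but 528 without WT-WT replicate 4, 602 without WT-WT replicate 3 (321 higher and 281 lower), 999 without WT-WT replicate 2, 613 without KO-WT replicate 3 and 959 without KO-WT replicate 2. The 3 calls did not hold without some single libraries either. In limma fits without KO-WT replicate 2, all 3 were lost (adjusted p = 0.0651 for Acta2, 0.0609 for Cnn1 and 0.0632 for Myl9). Without WT-WT replicate 4, whose Acta2 value of 6.87 stood above the others, the difference of Acta2 was -0.36 (limma adjusted p = 0.0941), and Cnn1 (0.0531) and Myl9 (0.100) were lost as well. Without KO-WT replicate 4 Acta2 (limma adjusted p = 0.0814) and Myl9 (0.093) were lost, and without WT-WT replicate 2 Cnn1 (0.0581) and Myl9 (0.0958). Myl9 was also lost without WT-WT replicate 1 (limma adjusted p = 0.0542) and without KO-WT replicate 3 (0.0515). Within clones E3 and C1 none of the 10 was called (limma, -0.34 for Acta2, -0.40 for Cnn1 and -0.33 for Myl9, adjusted p = 0.209, 0.196 and 0.391), and 0.0667% of all tested genes were. Within clones 1 and 1-4, with 1 KO-WT library that is assumed to vary like the others, Myl9 was called (-0.91, limma adjusted p = 0.0319) and Acta2 (-0.998, 0.0685) and Cnn1 (-0.42, 0.211) were not. Across 14805 genes the difference rose with transcript GC content in this comparison (Spearman rank correlation 0.502, a description, since genes are not independent). With GC and length trends removed, Acta2 (-0.58), Cnn1 (-0.44) and Myl9 (-0.62) were still called. On days 3, 4 and 5 alone, and with only WT-WT and KO-WT in the fit, none of the 3 was called, though the differences were no smaller (-0.65 for Acta2, -0.40 for Cnn1 and -0.54 for Myl9 in both fits).

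In Lin28a-null cells Myl9 was the only one of the 10 called on Trim71 loss, against 4.12% of all tested genes lower and 4.26% higher; the median of the 10 was -0.05 and that of all tested genes -0.01. Myl9 read 5.33, 5.14, 5.14, 5.53 and 5.20 in KO-KO libraries, below all WT-KO values of 5.64 to 5.95, and genes without overlap in that direction made up 6.55% of all tested genes. The 1256 genes called in all became 676 to 814 without WT-KO replicate 1, 4 or 5 or KO-KO replicate 1 or 2. Myl9 fell by 0.52 ± 0.122 (SE, limma adjusted p = 0.0146), by nearly the same amount as with Lin28a intact. The call was lost, in limma fits, without WT-KO replicate 5 (adjusted p = 0.0508) or KO-KO replicate 2 (0.0572), and within clones E3 and C1 (0.179) or 1 and 1-4 (0.0753). Tpm1 (-0.18, limma adjusted p = 0.0916) was called without KO-KO replicate 1 (-0.23, 0.0419) and in clones E3 and C1 (-0.33, 0.0385), but had the opposite sign in clones 1 and 1-4 (0.059, 0.579). Acta2 (0.16, limma adjusted p = 0.484) and Tagln (0.17, limma adjusted p = 0.485) were not called, with Acta2 near the lower limit for testing.

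Whether Trim71 loss acted differently in the Lin28a states was tested by the interaction, in which 0.02% of all tested genes were called and none of the 10. The largest term was that of Acta2, 0.73 ± 0.193 (SE, limma adjusted p = 0.184, unadjusted p = 0.00162), and 4 of the 10, Acta2, Tagln, Cnn1 and Srf, had an unadjusted p under 0.05, as had 15.1% of all tested genes. Acta2 passed the filter through the Lin28a-intact libraries, and its means were 3.17 in WT-KO and 3.33 in KO-KO libraries. Its term is therefore a description of the values only. Without Acta2, Tagln, Cnn1 and Srf remained of 9 genes. The limma adjusted p of Acta2 was 0.0247 without the day term, a fit that counts degrees of freedom which the removal of day effects had used. The interaction of Myl9 was 0.00 ± 0.188 (SE, 95% interval -0.39 to 0.40). Across 14805 genes the interaction fell with transcript GC content (Spearman rank correlation -0.496, a description). Srf, with a GC content higher than that of 99.3% of tested genes with a value, had a term of -0.21. With GC and length trends removed, 0 of 14805 genes were called in the interaction. Srf then differed by -0.02 on Lin28a loss with Trim71 absent and by -0.021 on Trim71 loss with Lin28a intact. Over the alternatives other than leaving out single libraries, its interaction term ran from -0.22 to -0.028. The cause of these terms was not tested.

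In cells without both proteins, 8 of the 10 genes fell relative to WT-WT cells, all but Vcl and Srf, against 24.6% of all tested genes lower and 21% higher; 7 did not overlap (23.6%), 5 were at least 2-fold lower (1.3%), the median was -0.95 (7 of 9 called, 4 at least 2-fold lower and -0.76 without Acta2) and that of all tested genes -0.02. This comparison shares the WT-WT libraries with the single losses and is given for its own values only. Among called genes 3143 rose and 3691 fell, or 3959 and 2953 with GC and length trends removed. Myl9 fell by 0.36 (limma adjusted p = 0.036); its call was lost without WT-WT replicate 1, 2 or 4 or KO-KO replicate 1, 2, 3 or 5 (limma adjusted p = 0.052 to 0.153), within clones E3 and C1 (-0.23, 0.42), on days 3, 4 and 5 alone (0.194) and with only the compared genotypes in the fit (0.126).

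The order of the genotype means repeated for most genes. For Acta2, Tagln, Cald1 and Vim it ran WT-WT, KO-WT, KO-KO and WT-KO from highest to lowest, and for Cnn1, Tpm1 and Tpm2 WT-WT, KO-WT, WT-KO and KO-KO. The step between KO-WT and the next genotype was free of overlap for all of these but Cnn1, and the last step overlapped for all 7. Myl9 had its own order, WT-KO, WT-WT, KO-KO and KO-WT, in which the Trim71-intact genotypes were the higher ones. Neighbours in the orders of Myl9, Vcl and Srf all overlapped.

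Other genes of the contractile programme were read from lists recalled from general knowledge. Of 20 further contractile genes 15 were tested, and in WT-KO relative to WT-WT cells 11 fell and 4 rose, with a median of -0.28, against 22% of all tested genes lower and 20.3% higher. The largest were Tpm4 (-1.01), another tropomyosin, Csrp1 (-0.96), a LIM protein of the actin cytoskeleton, and Lmod1 (-0.65), a leiomodin that nucleates actin filaments. In KO-KO relative to KO-WT cells 10 fell and 1 rose, with a median of -0.33, against 22% of all tested genes lower and 20.8% higher. These were led by Tpm4 (-1.03), Csrp1 (-0.92) and Des (-0.64), the gene of the muscle intermediate filament protein desmin. On Trim71 loss, 3 of the 15 were called with Lin28a intact and 2 without it, shares near those of all tested genes (11.2% and 8.38%), with Tagln2 (0.31 and 0.23) and Cnn3 (-0.22 and -0.21) in both. The 15 include Smtn, Des, Lmod1 and Synpo2, counted again below as mature smooth muscle markers, and Mylpf, counted again as a skeletal muscle marker.

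Of 25 actin cytoskeleton and adhesion genes 23 were tested. With Trim71 intact, 11 fell and 2 rose on Lin28a loss (median -0.15), and with Trim71 absent 11 fell and 3 rose (median -0.10), against the same 22% of all tested genes lower in each and 20.3% and 20.8% higher. The largest changes were those of Cyr61 (-1.51 and -1.40) and Ctgf (-1.38 and -1.53), secreted matrix proteins that respond to SRF and YAP, and of Fhl2 (-1.26 and -1.24), a LIM protein. On Trim71 loss Lima1, the gene of the actin-binding protein EPLIN, fell by 0.35 with Lin28a intact and by 0.38 without it.

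Among partners of SRF and genes upstream of it, 16 of 17 were tested. On Lin28a loss 9 fell and 3 rose with Trim71 intact (median -0.18), and 7 fell and 5 rose with Trim71 absent (median -0.14). Of all tested genes 22% fell in each comparison and 20.3% and 20.8% rose, near the shares of 3 and 5 of 16 that rose here. The largest were Tgfbr2 (-1.53 and -1.38), a TGF-beta receptor, and Tgfb2 (-1.25 and -1.15), a TGF-beta ligand. Elk3, a ternary complex factor, fell by 0.80 and 0.82 (log2 differences -0.80 and -0.82). On Trim71 loss with Lin28a intact, 3 of the 16 fell and 2 rose, against 6.43% of all tested genes lower and 4.74% higher. Among them Rock1 (-0.61) and Rock2 (-0.55), genes of kinases that promote actomyosin contraction, fell and Tgfb1 (0.44) rose. Differences in this comparison rose with transcript GC content (Spearman rank correlation 0.502), and the part of that trend in these genes was not tested. In Lin28a-null cells none of the 16 was called on Trim71 loss.

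Of the 7 immediate early genes 5 were tested. On Lin28a loss Egr1, a zinc finger transcription factor, rose by 1.41 ± 0.13 (SE) with Trim71 intact and by 1.34 with Trim71 absent (limma adjusted p = 4.39e-07 and 7.37e-07), whereas Fos, a subunit of AP-1, fell by 1.01 and 0.79 (limma adjusted p = 0.00121 and 0.00667) and Mcl1, a survival protein of the BCL2 family, by 0.38 and 0.37. With Lin28a intact, Junb (0.43) and Ier2 (0.28) were higher on Trim71 loss, 2 of 5 against 4.74% of all tested genes higher. The part of the GC trend of that comparison in these genes was not tested. The immediate early genes thus did not move in a single direction on Lin28a loss.

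**Figure D4:**
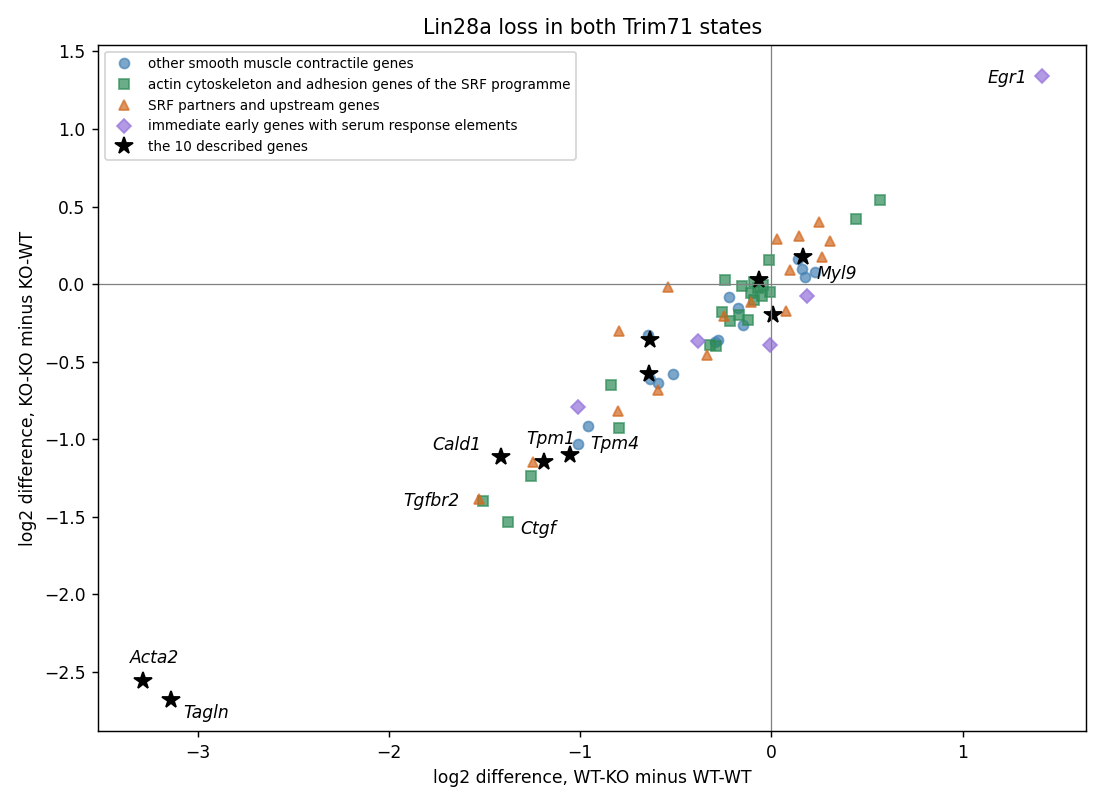
Log2 difference on Lin28a loss with Trim71 intact (x axis) against that with Trim71 absent (y axis) for the tested genes of 4 lists (coloured symbols) and the 10 genes (stars). Acta2 and Tagln lie at the lower left, at -3.29 and -3.14 on the x axis, and Egr1 at the upper right, at 1.41.

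Markers of several other cell types moved with the Lin28a state beside these genes. The counts of called markers below stand against 22% of all tested genes lower on Lin28a loss in each Trim71 state. Of all tested genes 20.3% were higher with Trim71 intact and 20.8% with Trim71 absent. Summed over the list in normalised units, 8 trophectoderm markers ranged from 4360 to 5789 in WT-WT and 4342 to 5352 in KO-WT libraries, against 1111 to 1344 in WT-KO and 984 to 1231 in KO-KO libraries; 7 of the 8 were tested. Of these 7, 5 fell on Lin28a loss in both Trim71 states; the sum was carried mostly by the simple epithelial keratins Krt8 (-4.22 in WT-KO relative to WT-WT cells) and Krt18 (-4.20), and Eomes (0.13, limma adjusted p = 0.241) and Tfap2c (0.13, limma adjusted p = 0.139) were not called. The 7 primitive endoderm markers summed to 262 to 361 and 317 to 475 in Lin28a-intact libraries (WT-WT and KO-WT) and to 80.6 to 104 and 92.0 to 130 in Lin28a-null libraries (WT-KO and KO-KO); 5 were tested, of which 5 fell with Trim71 intact and 4 with Trim71 absent, Dab2 by 2.78 with Trim71 intact. Of 12 fibroblast markers 7 were in the table, and they summed to 169 to 187 and 172 to 190 against 112 to 121 and 120 to 136. Of the 5 tested, Col1a1, Col1a2 and Pdgfra fell in both Trim71 states, while Thy1 (0.14 with Trim71 intact) and Twist1 (-0.16) were not called. Col1a2 passed the filter through the Lin28a-intact libraries, with means of 4.69 in WT-WT and 4.31 in KO-WT. Its means were 2.81 in WT-KO and 2.94 in KO-KO libraries, so its fall is a description of the values only. Pdgfra is also counted among the 5 tested primitive endoderm markers. The stem cell list summed to 36073 to 41255 in Lin28a-intact and 44450 to 50752 in Lin28a-null libraries. Of its 7 tested genes, 5 rose on Lin28a loss with Trim71 intact and 3 with Trim71 absent, and 0 fell. Zfp42 (-0.03) and Tdgf1 (-0.01) were not called with Trim71 intact. The mature smooth muscle list gave overlapping sums of 733 to 797, 740 to 785, 673 to 764 and 659 to 752. Smtn, the most abundant member, differed from the rest with Trim71 intact: Smtn rose (0.16) and Des (-0.60), Lmod1 (-0.65) and Synpo2 (-0.22) fell on Lin28a loss. With Trim71 absent, Des (-0.64) and Lmod1 (-0.33) fell, and Smtn (0.09, limma adjusted p = 0.176) and Synpo2 (-0.08, 0.463) were not called. Skeletal muscle markers, 2 of 6 tested, summed to 1543 to 1692 and 1667 to 1914 in Lin28a-intact and 1676 to 1947 and 1648 to 1859 in Lin28a-null libraries. Mylpf, with genotype means of 10.61 to 10.79, made up most of each sum and was called higher with Trim71 intact (0.18, limma adjusted p = 0.0235). Acta1, the skeletal muscle alpha-actin, fell (-2.11 with Trim71 intact and -1.82 without). Acta1 passed the filter through the Lin28a-intact libraries, with means of 5.32 in WT-WT and 4.94 in KO-WT. Its means were 3.21 in WT-KO and 3.12 in KO-KO libraries, so its fall is a description of the values only. Cardiac markers summed to 125 to 135 and 108 to 128 against 103 to 122 and 103 to 111; of 4 tested, 2 fell and 1 rose, Myl7 (0.35 and 0.41), in each comparison. The 2 that fell include Myh7, which passed the filter through the Lin28a-intact libraries, with means of 3.62 in WT-WT and 3.63 in KO-WT. Its means were 2.83 in WT-KO and 2.74 in KO-KO libraries, so its fall is a description of the values only. The part of these other cell types in the fall of Acta2, Tagln and the other genes was not tested.

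Among the 5 genes whose values tracked Acta2 most closely over the 18 libraries were Pmp22 (Pearson r = 0.994), AC122273.1 (0.994), Adgra2 (0.993) and Tgfb2 (0.991). These genes share with Acta2 the split by Lin28a state. On residuals, with genotype and day taken out, the closest were Nsg1 (0.925), Crybg1 (0.923), Col1a2 (0.919), Zkscan7 (0.910) and Gm2245 (0.870). For Srf the closest by value were Tomm40 (0.952), Edf1 (0.931), Snrpb (0.925), Polr2i (0.910) and Scrn2 (0.906), and on residuals Rps19-ps6 (0.951), Fen1 (0.950), Maz (0.941), Lmnb2 (0.934) and Gm14817 (0.918). Acta2 was not among the genes closest to Srf, nor Srf among those closest to Acta2.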

How the data were processed

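The authors deposited 1 table of log2 normalised expression per gene symbol, from -0.71 to 16.30; the log2 scale is read from the values, of which 4126 of 412015 lie below 0. Per the submitters' processing notes, CASAVA 1.8, STAR and DESeq2 were used, with no role given. The build, annotation and counting rule are not given in the sources used here; the TruSeq RNA v2 kit does not mark strand, so overlapping genes may share reads. Day effects had been removed before deposit (largest day term 1.7e-08), and KO-WT replicate 5, which differed from the average of its genotype's other libraries by at most 1.5e-08, was left out. Library depth is unknown and intervals for counting error are not given.

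Genes that reached 10 normalised units (2 raised to the value) in 4 or more of the 18 libraries (14988) were fitted in limma 3.58.1, R 4.3.3 (lmFit, contrasts.fit, eBayes with trend), with a mean per genotype and a day term, leaving 10 residual degrees of freedom. A gene was called where the Benjamini-Hochberg adjusted p-value over all tested genes was under 0.05. Library days pair the genotypes by label; a check by correlation is void, since the day effect had been removed. The fit was tested on simulated data. The members, gene lists and tests were chosen with earlier results of these data known. All 10 genes are named; of each list, up to 3 called genes of largest absolute difference per comparison; and the 5 genes closest to Acta2 and to Srf, of which 1 is not reported here. Transcript GC content and shared stretches of 50 bases came from GENCODE vM21 and promoters from RefSeq, GRCm38.p6.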

Additional observations from a re-analysis of the deposited data

Results flagged for a closer look

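Single libraries stood apart from the other libraries of their genotype in 3 of 40 groups of 4 or 5 libraries, where a gap test of the most distant library flags about 1 group in 20 by chance. The Acta2 value of WT-WT replicate 4 was 6.87, against 6.30 to 6.35 in the other WT-WT libraries. The Cald1 value of KO-WT replicate 4 was 10.28, against 10.08 to 10.10 in the others. The Srf value of WT-KO replicate 3 was 8.68, against 8.84 to 8.90 in the others.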

How the results depend on the processing

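Of the 60 differences of a gene in a comparison, 27 were called, and under the alternatives tried no called difference changed sign. Of 1784 values under alternatives, 1687 kept direction and side of the threshold, 45 lost a call, 7 gained one and 45 changed sign, over 17 differences that were not called. The numbers of the 10 genes called on Lin28a loss and on loss of both genes moved by less than 1.5 times throughout. On Trim71 loss with Lin28a intact the number was 0 in clones E3 and C1 alone, 1 in clones 1 and 1-4 alone, 0 on days 3, 4 and 5 alone, 0 with only the 2 genotypes compared, and 0 to 4 leaving out each library in turn. In Lin28a-null cells it was 2 without the day term (no replicate block), 0 in clones 1 and 1-4 alone, 0 on days 3, 4 and 5 alone, and 0 to 2 leaving out each library. For the interaction it was 1 without the day term. The replicate block, here the day, changed the number for no other comparison by over 1.5 times. The causes of these changes were not tested.

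Sign changes on Trim71 loss with Lin28a intact were Tpm2 (0.0089) and Vim (0.035) in clones E3 and C1, and Vim (0.0056) and Srf (-0.021) with GC and length trends removed. In Lin28a-null cells they were Acta2 (-0.0044), Tagln (-0.022), Cald1 (-0.035) and Vim (-0.014) in clones E3 and C1, Tpm1 (0.059), Tpm2 (0.063) and Vcl (0.051) in clones 1 and 1-4, and Cald1 (-0.043) on days 3, 4 and 5. On Lin28a loss they were Srf (-0.0096) with only WT-WT and WT-KO in the fit, and, in Trim71-null cells, Vcl on days 3, 4 and 5 (-0.013) and with trends removed (-0.013). In the interaction they were Myl9 (-0.196), Tpm1 (-0.084) and Vim (-0.049) in clones E3 and C1, Tpm2 in clones 1 and 1-4 (0.161) and with trends removed (0.030), and Myl9 on days 3, 4 and 5 (-0.012) and with 75th percentiles set equal (-0.012). Leaving out each library in turn, sign changes fell in the ranges -0.066 to 0.013 (Tpm2) and -0.105 to 0.0074 (Vim) on Trim71 loss with Lin28a intact, -0.027 to 0.095 (Vim) and -0.052 to 0.019 (Vcl) in Lin28a-null cells, -0.028 to 0.259 (Myl9) and -0.056 to 0.062 (Srf) on Lin28a loss with Trim71 intact, -0.0070 to 0.059 (Vcl) with Trim71 absent, and -0.108 to 0.217 (Myl9) and -0.015 to 0.084 (Tpm1) in the interaction.

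Depth is unknown, so the precision of low genes such as Acta2 in Lin28a-null cells cannot be given. Cnn1 was not tested under the stricter filter. Lin28a genotype and clone cannot be told apart.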
